A study of Mus musculus with 9 samples.

Results

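Epigonadal white adipose tissue (eWAT), the pad of white fat that lies against the female reproductive tract, was compared between tumour-bearing mice and those tumour-free mice whose pads were rich in fat RNA. The libraries were chosen by Adipoq, the hormone adiponectin that fat cells make: those with more than 2000 counts per 1000000 (CPM, the count scaled by the library's total) were kept, which gave 5 of the 9 libraries of the series, 3 tumour bearing and 2 tumour-free. Adipoq was at 3729, 2332 and 3272 CPM in tumour-bearing mice 17, 21 and 22, against 3310.1 CPM in untreated mouse 4 and 4213 CPM in mouse 37, which had received extracellular vesicles (EVs). Tumour-bearing 21 was the library just inside the threshold, and EV 36, at 915 CPM, was the one just outside it. The other libraries left out were untreated 7, untreated 10 and EV 41, at 145, 441 and 773 CPM. These values chose the members and are given as a description, with no test.

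The study asked how a breast tumour and the vesicles it sheds alter fat. Tumour-bearing mice carried an orthotopic tumour of MDA-MB-231, a line of human breast cancer cells that lacks hormone receptors, in the mammary fat pad. EV mice received vesicles of the same cells through the tail vein, 10 injections in 5 weeks, and untreated mice are given no treatment by the labels, whereas the study's text also speaks of mice given buffer. All were young female NSG mice per the study's methods, a host without functional T, B and natural killer cells. The labels list the genotype as Wild Type and the time as week 12 for all, with a separate mouse behind each library. The tumour-free side therefore mixed 2 treatments, with a single mouse of each, so an effect of the vesicles and the difference between these 2 mice cannot be told apart. The p-values below set the difference between the groups against the spread within them. On the tumour-free side that spread is the difference between EV mouse 37 and untreated mouse 4. They hold for these 5 mice.

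White fat stores triglyceride in large droplets and releases it through lipases, and in cachexia, the wasting that some tumours cause, both fat and skeletal muscle are lost. Skeletal muscle shortens through the sarcomere, in which myosin thick filaments pull on actin thin filaments when calcium binds the troponin complex. Its genes are switched on together by myogenic factors such as MyoD and myogenin, which bind E-box motifs such as CAGCTG, and by MEF2 factors, and few of them are expressed by fat cells. In bulk tissue, fewer cells of a type and less RNA per cell cannot be told apart, and this holds for every level below.

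The 5 libraries held 20830705 to 24355135 counts. The share of counts on all genes of the mitochondrial genome (symbols that start with mt-) was 4.41%, 9.82% and 3.76% in tumour-bearing 17, 21 and 22. It was 8.83% in untreated 4 and 5.11% in EV 37. The rank correlation across genes was 0.984 between tumour-bearing 17 and 22 and 0.972 between untreated 4 and EV 37, whereas tumour-bearing 21 reached 0.939 to 0.949 with the other 4. The lowest was that of tumour-bearing 22 with untreated 4, at 0.928. Fat cell genes besides Adipoq were abundant in all 5, which a choice by Adipoq favours. Plin1, the coat protein perilipin of the fat droplet, was at 2079, 1442 and 1471 CPM in the tumour-bearing libraries, against 2128 CPM in untreated 4 and 2084 CPM in EV 37. The summed CPM of 25 ovary genes was 90.2, 56.1 and 113 in the tumour-bearing libraries, against 58.1 in untreated 4 and 137 in EV 37, while 3 of the 4 libraries left out held 7790 CPM or more. Untreated 4 stood apart through digestive enzymes of the exocrine pancreas. A list of 34 such genes, chosen after their values were seen, summed to 218, 464 and 205 CPM in tumour-bearing 17, 21 and 22, against 8590.5 CPM in untreated 4 and 546 CPM in EV 37. Their part in any result below was not tested.

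**Figure D1:**
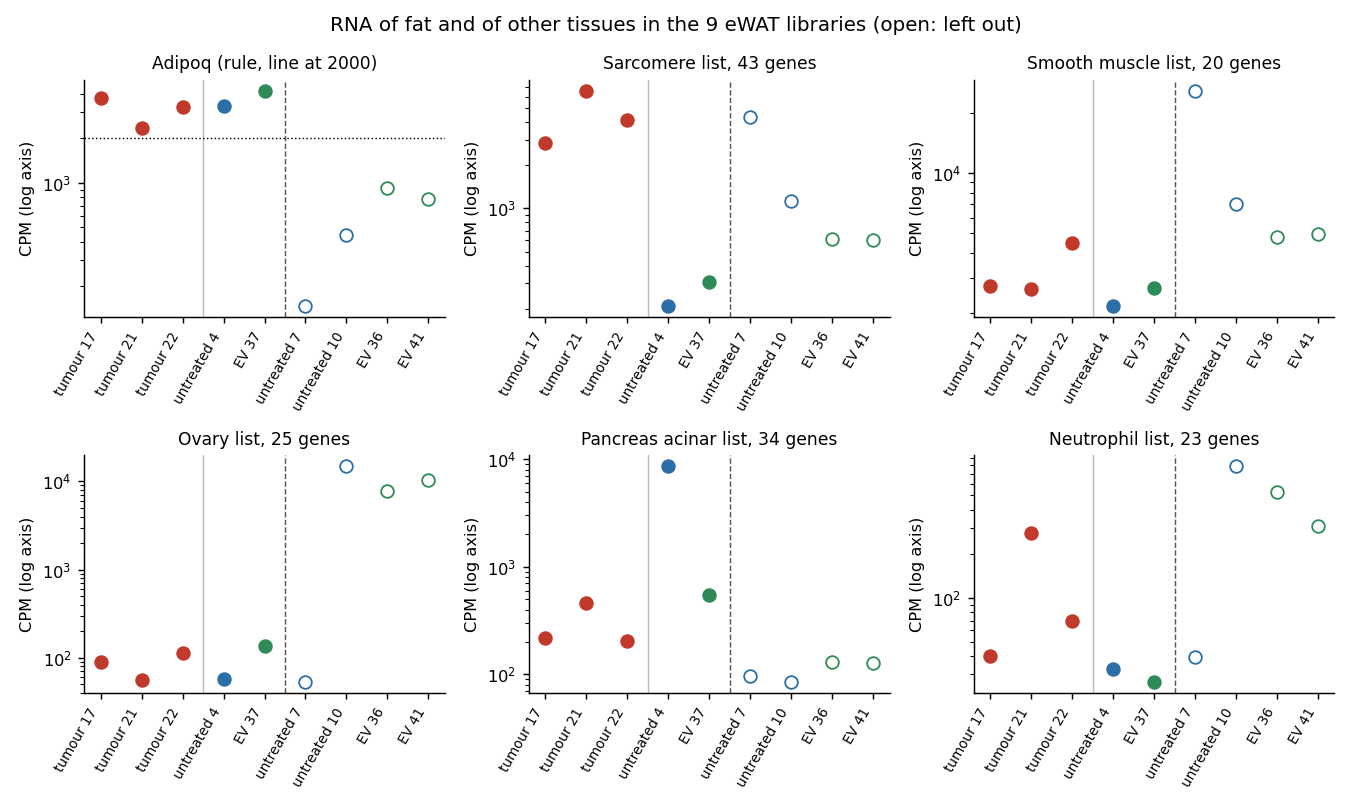
Levels of Adipoq and summed levels of marker lists of other tissues (CPM of the library total, log axes) in the 9 libraries, with tumour-bearing libraries left of the tumour-free ones and the 4 libraries left out drawn open. Adipoq sat at 2332 CPM or more in the 5 libraries compared, the sarcomere list separated the 3 tumour-bearing libraries (2868 to 6623 CPM) from untreated 4 and EV 37 (208 and 307 CPM), and untreated 7, left out, reached 4336 CPM.

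Skeletal muscle genes were higher in the tumour-bearing pads, and no gene was called lower. Of 16045 genes tested with edgeR's quasi-likelihood test, 96 rose in the tumour-bearing libraries (0.598%) and 0 fell (0%) at a Benjamini-Hochberg adjusted p under 0.05. Without adjustment, 888 genes were higher and 501 lower at p under 0.05, where 802 in all would be expected of unchanged genes. DESeq2 called 325 higher (1.81%, of 17911 genes given an adjusted p) and 60 lower (0.335%), and the 325 held all 96. The median log2 fold change of all genes tested was -0.0027. In 2120 genes (13.2%) every tumour-bearing library lay above both tumour-free ones, and in 2044 (12.7%) every one lay below.

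The call of each of the 96 genes rested on both tumour-free libraries. Leaving out untreated 4 or EV 37, which sets the 3 tumour-bearing libraries against a single library assumed to vary as they do, left 0 genes called in edgeR, with 823 and 807 genes at an unadjusted p under 0.05. Leaving out tumour-bearing 17 left 61 genes called higher and leaving out 22 left 25. Without tumour-bearing 21, which stood apart from mice 17 and 22, 315 genes were higher and 137 lower. The fold change of all 96 genes was positive in each of the 13 alternatives run. An exact permutation test of a single gene cannot go below p = 0.1 with 3 libraries against 2, so the calls depend on edgeR's spread, which is shared across genes.

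Most of the 96 genes were nearly silent in untreated 4 and EV 37. For 77 of the 96 both of these libraries were below 1 CPM on the TMM scale. That scale is CPM of the library total corrected by edgeR's trimmed-mean factor. Every level from here on is on it unless named as a sum or as CPM of the total. Untreated 4 and EV 37 both held 0 counts for 13 of the 96, and 1 to 3 counts in all for another 19. The low-count filter let 61 of the 96 through on the tumour-bearing libraries alone, and such genes had to differ. These are the genes below 0.445 CPM of the total in both tumour-free libraries. Counts and medians that include them, and their own p-values, describe the list and support nothing further. The other 35 reached 0.445 CPM of the total in at least 1 tumour-free library and had a median log2 fold change of 4.65. The filter asked for as many libraries as the smaller group held. Those of the 35 below that level in 1 tumour-free library, such as Ckm and Myh2, therefore also needed a tumour-bearing one to pass. The values of the 35 are thus a description too. The smallest of the 96 changes was that of Pde4dip. In 83 of the 96 all 3 tumour-bearing libraries also exceeded all 6 tumour-free libraries of the series, in CPM of the total. The same count was not made over all genes, and the 96 had already been called against untreated 4 and EV 37.

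**Figure D2:**
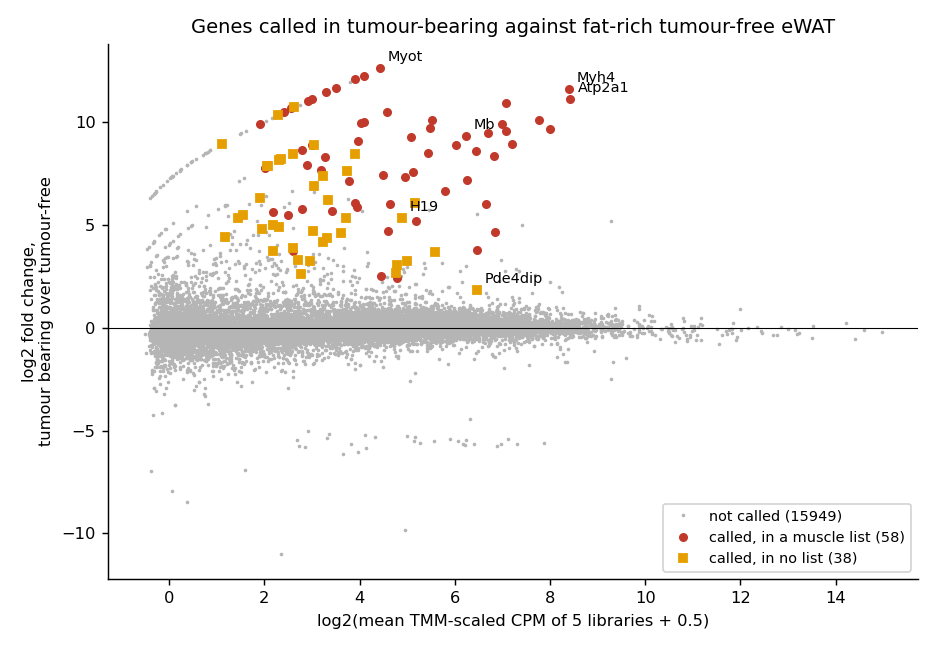
Log2 fold change of tumour-bearing over tumour-free libraries (y axis) against the mean level over the 5 libraries (x axis, log2 of TMM-scaled CPM plus 0.5) for 16045 genes, with the 96 genes called by edgeR marked by whether a muscle list holds them. All 96 lie above 0 on the y axis, 58 of them in the muscle lists and 38 in no list.

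Of the 96 genes, 58 (60.4%) belonged to 4 of the 5 lists of muscle genes: the sarcomere, the troponins, calcium handling, and muscle metabolism. In the 5 lists together, 114 of 124 genes were tested and all 114 had a positive fold change. The groups did not overlap in 102, beside 13.2% of all genes without overlap above. Of the 114, 55 passed the low-count filter only through the tumour-bearing libraries. The other 59, which reached 0.445 CPM of the total in a tumour-free library, had 18 calls and a median log2 fold change of 2.22. Over all genes tested, 35 of 15652 such genes were called. Some of the 18, such as Myh2 and Mylpf, also needed a tumour-bearing library to pass, so these counts are a description. Creatine metabolism, a list that shares its called genes Ckm and Ckmt2 with muscle metabolism, was the one other list with a call in edgeR. None of the 38 remaining called genes was in any list.

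The sarcomere list had 30 of its 43 genes called (0.598% of all genes), 7 of them among the 17 that reached 0.445 CPM of the total in a tumour-free library. Its summed CPM of the total was 2868, 6623 and 4155 in tumour-bearing 17, 21 and 22, against 208 in untreated 4 and 307 in EV 37. Neb, nebulin, sets the length of the thin filament. It was at 89.1, 163 and 125 CPM in the tumour-bearing libraries, against 0.667 CPM in untreated 4 and 1.03 CPM in EV 37 (log2 fold change 7.19 ± 0.44, SE, edgeR adjusted p = 0.0123). The groups did not come near each other, and tumour-bearing 21 was the highest library. Ttn, the elastic giant titin, was at 84.7, 413 and 135 CPM in the tumour-bearing libraries, against 0.286 CPM in untreated 4 and 0.147 CPM in EV 37 (9.93 ± 1.13, edgeR adjusted p = 0.0281), and its call was lost without tumour-bearing 22 (as were those of Myh1 and Myh2 below).

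The myosin heavy chains are the motors of the thick filament, and their isoforms set the fibre type. Myh4 (fast, type IIB) was at 272, 1149.7 and 264 CPM in tumour-bearing 17, 21 and 22, against 0.333 CPM in untreated 4 and 0.0368 CPM in EV 37 (log2 fold change 11.63 ± 1.42, edgeR adjusted p = 0.0346, lost also without tumour-bearing 17 or 22). Myh1 (fast, type IIX) was at 129.6, 263 and 275 CPM in the tumour-bearing libraries, against 0.238 CPM in untreated 4 and 0 CPM in EV 37 (10.95 ± 1.01, edgeR adjusted p = 0.0169). Tumour-bearing 21 was far above the others for Myh4 but not for Myh1. Myh2 (type IIA) was at 128, 412 and 195 CPM in the tumour-bearing libraries, against 0.429 CPM in untreated 4 and 0.552 CPM in EV 37 (8.94 ± 0.78, edgeR adjusted p = 0.0153). Myh7, the slow isoform of type I fibres, was at 58.0, 81.0 and 81.4 CPM in the tumour-bearing libraries, against 0 CPM in untreated 4 and 0.147 CPM in EV 37 (9.72 ± 0.64, edgeR adjusted p = 0.0123). These genes are close paralogs, as are Myh6 and Myh7, so reads that fit several of them may have been split between them in the authors' quantification.

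The shares of the myosin counts differed between the 3 tumour-bearing pads, and fibres themselves were not typed. Of the counts on the 4 adult isoforms, Myh4 took 46.3% in mouse 17 (Wilson interval at 95%, 45.4 to 47.1%), 60.3% in mouse 21 (59.8 to 60.8%) and 32.3% in mouse 22 (31.7 to 33.0%). Myh1 took 22%, 13.8% and 33.7%, and Myh7 9.86%, 4.25% and 9.98%, while Myh2 stayed between 21.6% and 24%. The intervals cover counting error only. The fast form outweighed the slow one in the troponins as well: the counts of Tnnt3 (fast troponin T) over Tnnt1 (slow) were 8.97 in mouse 17, 13.5 in mouse 21 and 4.71 in mouse 22. For all 4 fast to slow pairs computed (3 troponin pairs and Myh4 over Myh7) the ratio was highest in mouse 21, up to 20.8 for Tnni2 over Tnni1.

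The troponins, the calcium switch of the thin filament, had 6 of 7 tested genes called (0.598% of all genes). Of the 7, 5 were below 0.445 CPM of the total in both tumour-free libraries, so they passed the filter through the tumour-bearing libraries alone. Tnnc1 was below that level in EV 37 and also needed a tumour-bearing library. Tnnc2, fast troponin C, was at 135, 349 and 183 CPM in tumour-bearing 17, 21 and 22, against 0.238 CPM in untreated 4 and 0.331 CPM in EV 37 (log2 fold change 9.56 ± 0.69, edgeR adjusted p = 0.0123). Tnni1, slow troponin I, was at 13.4, 12.7 and 16.8 CPM in the tumour-bearing libraries, against 0.0953 CPM in untreated 4 and 0.0368 CPM in EV 37, a ratio of 232 with a counting interval of 79.1 to 1127 (edgeR adjusted p = 0.0123). Its levels in the 3 tumour-bearing pads were close to each other, unlike those of the fast form. Tnni2, fast troponin I, was at 108, 264 and 141 CPM in the tumour-bearing libraries, against 0.333 CPM in untreated 4 and 0.147 CPM in EV 37 (9.49 ± 0.71, edgeR adjusted p = 0.0126). Tnnt1 was at 24.5, 46.5 and 50 CPM in the tumour-bearing libraries, against 0.667 CPM in untreated 4 and 0.552 CPM in EV 37 (6.04 ± 0.46, edgeR adjusted p = 0.0126).

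Calcium handling, the release and re-uptake of calcium that starts and ends a contraction, had 11 of 20 genes called (0.598% of all genes). Of these, 5 were among the 12 that reached 0.445 CPM of the total in a tumour-free library. Ryr1, the release channel of the sarcoplasmic reticulum, was at 69.1, 143 and 112 CPM in the tumour-bearing libraries, against 0.0953 CPM in untreated 4 and 0.331 CPM in EV 37 (log2 fold change 8.88 ± 0.64, edgeR adjusted p = 0.0123). Cacna1s, the voltage sensor that opens it, was at 19.3, 31.7 and 24.8 CPM in the tumour-bearing libraries, against 0 CPM in untreated 4 and 0.0736 CPM in EV 37, a ratio of 606 with a counting interval of 167 to 5007 (edgeR adjusted p = 0.0123). Both parts of the release machinery were separate between the groups. Atp2a1, the calcium pump of fast fibres, was at 319, 1011 and 386 CPM in the tumour-bearing libraries, against 0.238 CPM in untreated 4 and 0.258 CPM in EV 37 (11.14 ± 0.91, edgeR adjusted p = 0.0142). Atp2a2, the pump of slow fibres and of many other cells, did not pass: it was at 299.5, 209 and 341 CPM in the tumour-bearing libraries, against 169 CPM in untreated 4 and 178 CPM in EV 37 (0.70 ± 0.26, edgeR adjusted p = 0.559). Hrc, a calcium-binding protein of the reticulum, was at 16.1, 33.8 and 21.6 CPM in the tumour-bearing libraries, against 0.238 CPM in untreated 4 and 0.442 CPM in EV 37 (6.08 ± 0.53, edgeR adjusted p = 0.0153, lost without tumour-bearing 22).

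Muscle metabolism had 11 of 22 tested genes called (0.598% of all genes), 4 of them among the 15 that reached 0.445 CPM of the total in a tumour-free library. Mb, the oxygen store myoglobin, was at 93.9, 135 and 147 CPM in tumour-bearing 17, 21 and 22, against 0.286 CPM in untreated 4 and 0.110 CPM in EV 37 (log2 fold change 9.32 ± 0.50, edgeR adjusted p = 0.0123). Ckm, the muscle creatine kinase, was at 283, 689.9 and 299.8 CPM in the tumour-bearing libraries, against 0.715 CPM in untreated 4 and 0.331 CPM in EV 37 (9.68 ± 0.78, edgeR adjusted p = 0.0142, not called with all 9 libraries in the fit). Mb was the more even of these genes across the tumour-bearing pads, and Ckm was highest in mouse 21.

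Genes with 0 counts in both tumour-free libraries are given as bounds against a floor of 3 counts per library. Myot, myotilin of the Z-disc, was at 23.5, 57 and 24.5 CPM in the tumour-bearing libraries and so at least 276-fold higher. Myom2, an M-band protein, was at 13.5, 47.1 and 21.7 CPM there (at least 217-fold), and Ampd1, the muscle AMP deaminase, at 15.7, 40.7 and 16.2 CPM (at least 191-fold). All of these had 0 CPM in untreated 4 and EV 37. For Csrp3, a Z-disc sensor of stretch, the bound was 143-fold, for Ckmt2, the mitochondrial creatine kinase, 122-fold, for Mypn, the Z-disc protein myopalladin, 99.4-fold, for Myoz2, a Z-disc binding protein of calcineurin, 92.2-fold, and for Ppp1r3a, which targets a phosphatase to glycogen, 63.4-fold. Each of these 8 was called by edgeR (adjusted p from 0.0153 for Csrp3, Ckmt2 and Ppp1r3a to 0.0449 for Myom2). All 8 had passed the low-count filter only through the tumour-bearing libraries, so these p-values add no support. Without tumour-bearing 22 none of the 8 was called, nor were Myot, Myom2, Ampd1 and Myoz2 without tumour-bearing 17. Myom2, Mypn and, from the genes above, Cacna1s were not called with all 9 libraries in the fit. Myl2, the slow regulatory light chain, was at 11.7, 13.5 and 12.3 CPM in the tumour-bearing libraries, against 0.0476 CPM in untreated 4 and 0 CPM in EV 37, a ratio of 601 with a counting interval of 108 to 23770.0 (edgeR adjusted p = 0.0123).

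**Figure D3:**
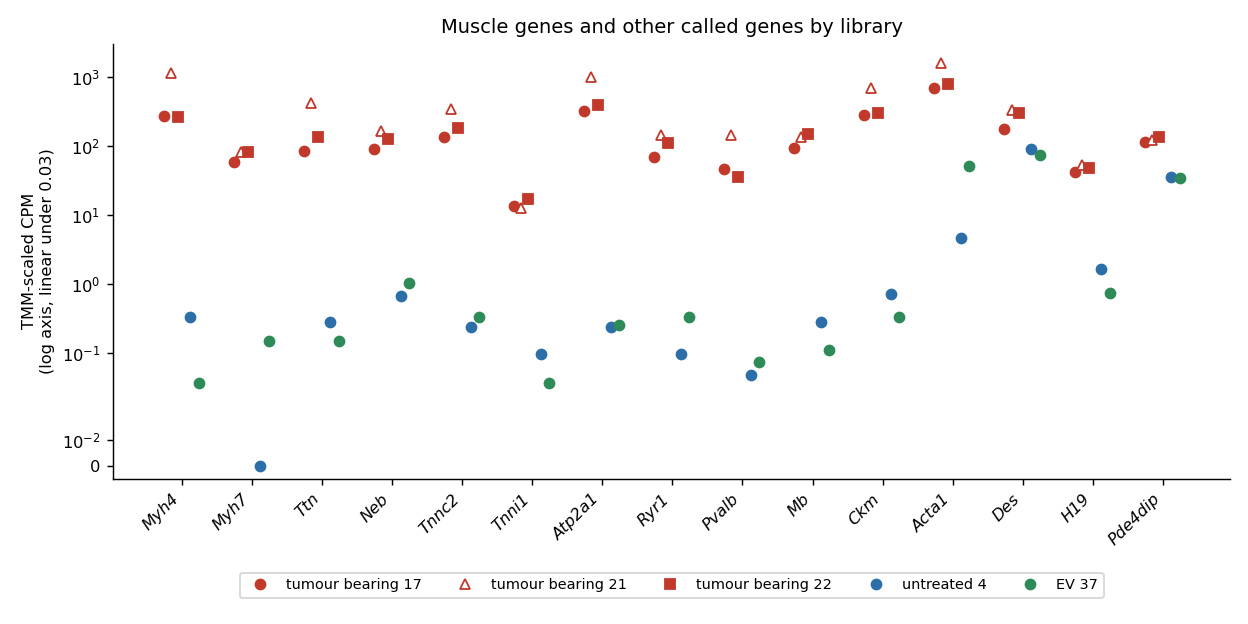
TMM-scaled CPM (log axis, linear under 0.03) of muscle genes and of other called genes in the 5 libraries, 1 point per library, with tumour-bearing 17, 21 and 22 listed before untreated 4 and EV 37. Myh4 sits at 264 to 1149.7 CPM in the tumour-bearing libraries and at 0.333 and 0.0368 CPM in untreated 4 and EV 37, while Pde4dip, the smallest of the 96 changes, sits at 115 to 135 CPM against 35.4 and 34.5 CPM.

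Because so many of these genes are known targets of the myogenic and MEF2 factors, their promoters were searched for those motifs. Windows from 250 bases before to 50 bases after the start of transcription (RefSeq, GRCm38.p6) were found for 70 of the 96 called genes, and 26 had none. The E-box CAGCTG, which reads the same on both strands, was in 52.9% of the 70 genes, against 18.7% of 11608 tested genes with a window and 18.3% of 27025 genes in the table. The MEF2 motif, searched on both strands, was in 27.1%, against 2.48% and 3.7%. Both motifs were found in 17.1% of the 70 genes, against 0.724% of the tested genes. These shares are descriptions, a match is not a binding site, and the called genes were chosen by the comparison itself. In 10 of the called genes a single window held both motifs, a count that leaves out the genes of a single chromosome. The 4 of these with the smallest p in edgeR are shown because they place the motifs of both factors beside a gene of the result, with the motifs in capitals, 5′ to 3′ on the strand of the gene. Ppp1r3a lies at chr6:14755225-14755524 on the minus strand, Klhl41 (a stabiliser of nebulin) at chr2:69669870-69670169 on the plus strand, Dusp27 (a phosphatase-like protein of muscle) at chr1:166127849-166128148 on the minus strand, and Pgam2 (the muscle phosphoglycerate mutase) at chr11:5803747-5804046 on the minus strand.
Ppp1r3a: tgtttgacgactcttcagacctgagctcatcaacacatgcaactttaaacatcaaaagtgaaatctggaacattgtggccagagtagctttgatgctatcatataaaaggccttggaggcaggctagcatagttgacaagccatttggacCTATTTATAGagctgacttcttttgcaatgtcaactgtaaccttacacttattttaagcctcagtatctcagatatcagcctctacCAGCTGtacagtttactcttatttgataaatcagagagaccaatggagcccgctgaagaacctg
Klhl41: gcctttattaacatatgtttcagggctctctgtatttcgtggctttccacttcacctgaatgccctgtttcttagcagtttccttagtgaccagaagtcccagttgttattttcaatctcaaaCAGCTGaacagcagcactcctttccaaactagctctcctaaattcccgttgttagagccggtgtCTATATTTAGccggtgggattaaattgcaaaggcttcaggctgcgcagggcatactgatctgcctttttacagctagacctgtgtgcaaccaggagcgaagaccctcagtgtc
Dusp27: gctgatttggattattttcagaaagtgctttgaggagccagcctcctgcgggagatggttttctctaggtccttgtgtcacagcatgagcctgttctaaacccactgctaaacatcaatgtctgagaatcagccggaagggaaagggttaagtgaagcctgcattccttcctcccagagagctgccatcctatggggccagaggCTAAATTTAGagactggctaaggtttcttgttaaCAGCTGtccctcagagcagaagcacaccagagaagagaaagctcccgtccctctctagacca
Pgam2: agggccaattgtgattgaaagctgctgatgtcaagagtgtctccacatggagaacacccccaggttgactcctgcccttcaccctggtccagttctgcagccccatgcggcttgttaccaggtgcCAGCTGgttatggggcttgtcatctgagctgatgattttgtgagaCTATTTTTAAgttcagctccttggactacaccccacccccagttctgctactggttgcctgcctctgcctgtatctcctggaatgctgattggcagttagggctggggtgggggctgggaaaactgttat

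In these windows the E-box began 14 bases before the start of Ppp1r3a, 127 before that of Klhl41, 12 before that of Dusp27 and 125 before that of Pgam2, and the MEF2 motif began at 100, 63, 46 and 80 bases before the same starts. Klhl41 was at 21.9, 50.6 and 37.3 CPM in tumour-bearing 17, 21 and 22, against 0.0953 CPM in untreated 4 and 0.294 CPM in EV 37 (log2 fold change 7.45 ± 0.64, edgeR adjusted p = 0.0153). Pgam2 was at 27.3, 54.3 and 34.2 CPM in the tumour-bearing libraries, against 1.76 CPM in untreated 4 and 1.21 CPM in EV 37 (4.70 ± 0.43, edgeR adjusted p = 0.0169). Both calls were lost without tumour-bearing 22. Dusp27, named here for its window after its values were seen, was at 3.88, 4.55 and 3.59 CPM in the tumour-bearing libraries, against 0.0953 CPM in untreated 4 and 0.0736 CPM in EV 37 (5.49 ± 0.49, edgeR adjusted p = 0.0159, lost without tumour-bearing 17 or 22).

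The regulators that switch these genes on, and the ligases that break muscle protein down, gave no call: 0 of 22 tested genes of the myogenic and atrophy list passed edgeR's threshold in either direction, while DESeq2 called 9 higher (1.81% of all genes). Myf6, the myogenic factor of mature fibres, was at 2.79, 8.01 and 9.69 CPM in tumour-bearing 17, 21 and 22, against 0 CPM in untreated 4 and EV 37 (at least 53.9-fold, edgeR adjusted p = 0.0759, DESeq2 7.9e-08). Trim63, the ubiquitin ligase MuRF1, was at 8.47, 46.8 and 12.0 CPM in the tumour-bearing libraries, against 0 CPM in both tumour-free ones (at least 177-fold, edgeR adjusted p = 0.142). It was called by edgeR without tumour-bearing 21 and in DESeq2. Mstn, myostatin, which limits muscle growth, was at 1.89, 3.56 and 1.11 CPM in the tumour-bearing libraries, against 0 CPM in both tumour-free ones (at least 17.3-fold, edgeR adjusted p = 0.129). Mef2c, a MEF2 factor that many cells express, was at 32.9, 42.7 and 43.3 CPM in the tumour-bearing libraries, against 19.4 CPM in untreated 4 and 20.8 CPM in EV 37 (0.98 ± 0.19, edgeR adjusted p = 0.189). Of the 22 genes, 9 passed the low-count filter only through the tumour-bearing libraries and had to lie above, and the other 13 had a median log2 fold change of 0.54. The groups did not overlap in 14 of the 22, these 4 among them, beside 13.2% of all genes.

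The other genes of the sarcomere list did not pass in edgeR, whereas DESeq2 called 42 of the list's 43 genes (1.81% of all genes). In all 43 the tumour-bearing libraries lay above both tumour-free ones, beside 13.2% of all genes. Both counts include genes that passed the filter through the tumour-bearing libraries alone. Acta1, skeletal actin, was at 685, 1565 and 789 CPM in the tumour-bearing libraries, against 4.62 CPM in untreated 4 and 51.0 CPM in EV 37 (5.18 ± 1.17, edgeR adjusted p = 0.268, DESeq2 4.48e-09). The distance between the 2 tumour-free libraries was wide for this gene. Des, the filament protein desmin, was at 178, 332 and 302 CPM in the tumour-bearing libraries, against 90.7 CPM in untreated 4 and 74.2 CPM in EV 37 (1.71 ± 0.33, edgeR adjusted p = 0.175, DESeq2 6.47e-05). The smooth muscle list, markers of vessel and uterine wall, had 0 of 19 genes called by edgeR and 4 by DESeq2 (1.81% of all genes). The list summed to 2718, 2627 and 4483 CPM of the total in the tumour-bearing libraries, against 2162 in untreated 4 and 2663 in EV 37. Hspb6, a small heat shock protein of smooth and striated muscle, was its member with the smallest p, at 44.0, 77.7 and 54.1 CPM in the tumour-bearing libraries, against 17.5 CPM in untreated 4 and 15.5 CPM in EV 37 (1.83 ± 0.29, edgeR adjusted p = 0.0962).

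The level of muscle RNA was not the same in the 3 tumour-bearing pads. Of the 96 called genes, 80 were highest in mouse 21, 16 in mouse 22 and 0 in mouse 17. Over the 58 called genes of the muscle lists, the level in mouse 21 over the mean of mice 17 and 22 had a median log2 ratio of 0.80, with a range of -0.24 to 2.10. Mouse 21 also had the highest share of mitochondrial messenger RNA of the 5 libraries. Among the 4 libraries left out, untreated 7 had a sarcomere sum of 4336 CPM, within the range of the tumour-bearing libraries, but it was made of other genes. In CPM of the total, untreated 7 had Des at 1861, Acta1 at 318 and Ckm at 98.1, with Mb at 0.0765, Myh4 at 0.0229 and Tnnc2 at 0.421. Its smooth muscle sum was 25849 CPM, and in 5 of the 96 called genes it reached the lowest tumour-bearing library or more.

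Outside the muscle lists, the 38 other called genes are given with examples chosen after their values were seen. Several act in striated muscle. Apobec2, a muscle member of the cytidine deaminase family, was at 18.1, 33.7 and 20.2 CPM in the tumour-bearing libraries, against 0.0476 CPM in untreated 4 and 0.0736 CPM in EV 37, a ratio of 379.7 with a counting interval of 129.7 to 1843 (edgeR adjusted p = 0.0123). Scn4a, the sodium channel of the muscle membrane, was at 11.4, 12.5 and 14.5 CPM in the tumour-bearing libraries, against 0.0476 CPM in untreated 4 and 0 CPM in EV 37, a ratio of 620.2 with a counting interval of 111 to 24524 (edgeR adjusted p = 0.0123). Both followed the pattern of the listed muscle genes. H19, an imprinted long non-coding RNA that fetal tissues and adult muscle express, was at 42.6, 53.3 and 48.4 CPM in the tumour-bearing libraries, against 1.67 CPM in untreated 4 and 0.736 CPM in EV 37 (5.34 ± 0.41, edgeR adjusted p = 0.0126). Rpl3l, the muscle form of a ribosomal protein, was at 10.8, 27.7 and 18.8 CPM in the tumour-bearing libraries, against 0.715 CPM in untreated 4 and 0.846 CPM in EV 37 (4.6 ± 0.52, edgeR adjusted p = 0.0279, lost without tumour-bearing 22). Pde4dip, myomegalin, was at 115, 120.4 and 135 CPM in the tumour-bearing libraries, against 35.4 CPM in untreated 4 and 34.5 CPM in EV 37 (1.82 ± 0.18, edgeR adjusted p = 0.0178, lost without tumour-bearing 17 or 22). H19, Rpl3l and Pde4dip were not called with all 9 libraries in the fit. Rpl27-ps3, a pseudogene at 32.9, 35.9 and 56.9 CPM in the tumour-bearing libraries, against 4.72 CPM in untreated 4 and 5.48 CPM in EV 37, was also called, but not without tumour-bearing 22 nor with all 9 libraries. In CPM of the total it reached 82.5 in untreated 10, above every tumour-bearing library, and its counts are uncertain since it shares sequence with its parent gene.

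A list of 18 genes drawn up around the study, in leptin signalling, hypoxia, browning and lipolysis, gave 0 calls in edgeR (adjusted p from 0.194 up). DESeq2 called 2 of them (1.81% of all genes), Socs3 and Stat3. The study's main text does not name Socs3, and it follows STAT3 as phosphorylated protein in the hypothalamus. The 18 genes were chosen with the study in view and are no independent evidence of a direction. Their median log2 fold change was 0.51, beside -0.0027 over all genes, and it was 0.31 without tumour-bearing 21 and 0.27 without 22. Leptin, the hormone that fat secretes in proportion to its stores, varied most within the groups: Lep was at 209, 22.7 and 51.9 CPM in tumour-bearing 17, 21 and 22, against 41.7 CPM in untreated 4 and 609 CPM in EV 37 (-1.78 ± 1.24, edgeR adjusted p = 0.699). The levels of tumour-bearing 17 and 22 lay between the tumour-free ones, and without EV 37 the log2 fold change was 1.18. Lepr, its receptor, was at 11, 11.8 and 18.8 CPM in the tumour-bearing libraries, against 11 CPM in untreated 4 and 8.10 CPM in EV 37 (0.54 ± 0.32, edgeR adjusted p = 0.654).

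Stat3, the transcription factor that the leptin and interleukin-6 receptors activate, was at 189.7, 138 and 243 CPM in the tumour-bearing libraries, against 87.7 CPM in untreated 4 and 87.1 CPM in EV 37 (1.12 ± 0.28, edgeR adjusted p = 0.342, DESeq2 0.0187). Socs3, the feedback inhibitor that Stat3 induces, was at 17.1, 35.0 and 31.0 CPM in the tumour-bearing libraries, against 7.24 CPM in untreated 4 and 8.87 CPM in EV 37 (1.78 ± 0.36, edgeR adjusted p = 0.194, DESeq2 0.000434). All 3 tumour-bearing libraries were above both tumour-free ones for both genes. The leptin signalling list of 12 genes had 11 positive fold changes, 6 without overlap above (13.2% of all genes), 0 calls in edgeR and 3 in DESeq2 (1.81% of all genes), with a median of 0.56. Its other leading members were Ptpn1, a phosphatase that dampens the leptin receptor, at 58.6, 57.9 and 68.4 CPM in the tumour-bearing libraries, against 33.5 CPM in untreated 4 and 42.6 CPM in EV 37 (0.69 ± 0.19), and Irs1. Irs1, an adaptor of the insulin receptor, was at 87.2, 9.88 and 39.6 CPM in the tumour-bearing libraries, against 5.62 CPM in untreated 4 and 8.21 CPM in EV 37 (2.72 ± 0.90, edgeR adjusted p = 0.517, DESeq2 0.0103), and its high values were those of mice 17 and 22.

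Of the hypoxia genes, Vhl, the ligase subunit that marks HIF1α for destruction, was at 22.9, 21.5 and 19.4 CPM in the tumour-bearing libraries, against 22.5 CPM in untreated 4 and 30.1 CPM in EV 37 (-0.31 ± 0.20, edgeR adjusted p = 0.674). Hif1a was at 86.2, 71.3 and 90.5 CPM in the tumour-bearing libraries, against 51.8 CPM in untreated 4 and 66.3 CPM in EV 37 (0.48 ± 0.20, edgeR adjusted p = 0.579). Vhl overlapped between the groups and Hif1a did not. The 36 tested targets of HIF1, glycolytic and matrix genes for the most part, had a median of 0.07 (from -0.088 without tumour-bearing 21 to 0.26 without untreated 4), 24 positive values and 0 calls in either tool.

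**Figure D4:**
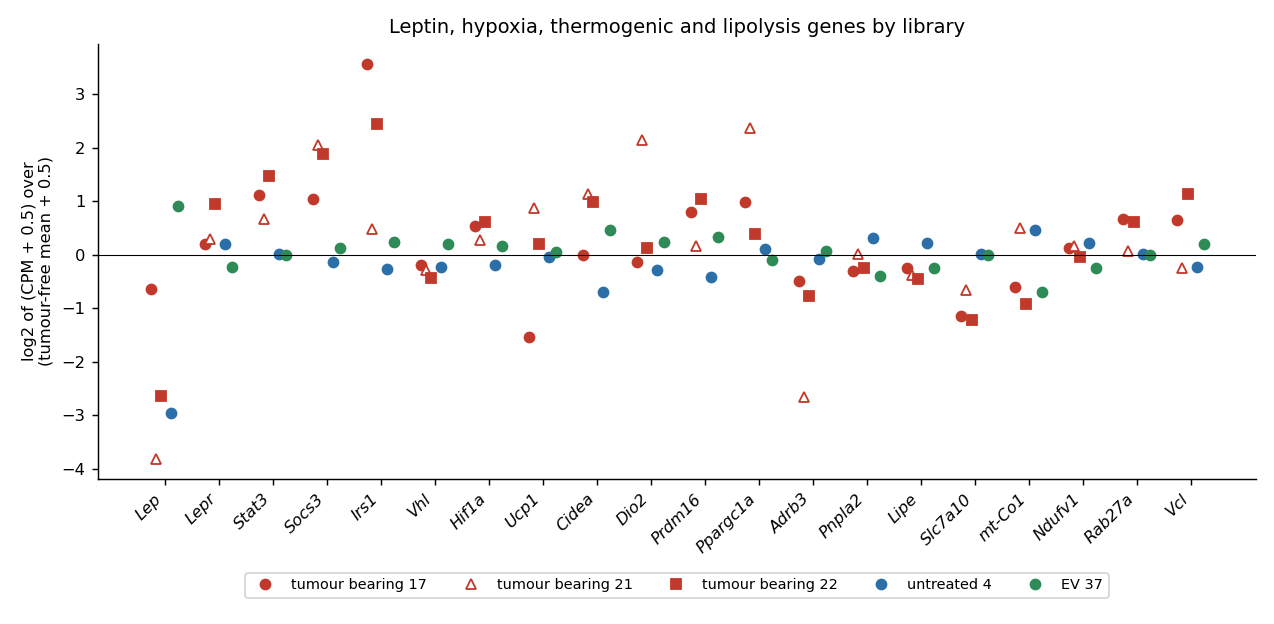
Log2 of each library's level plus 0.5 over the tumour-free mean plus 0.5 (TMM-scaled CPM) for genes of leptin signalling, hypoxia, browning and lipolysis, 1 point per library, with tumour-bearing 17, 21 and 22 listed before untreated 4 and EV 37. Socs3 and Stat3 lie above both tumour-free libraries in all 3 tumour-bearing ones, while Lep spreads from 22.7 CPM in tumour-bearing 21 to 609 CPM in EV 37.

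Browning, in which white fat cells gain the heat-producing programme of brown fat, was followed through 26 tested genes, of which edgeR called 0 and DESeq2 2 (1.81% of all genes), with a median log2 fold change of 0.35, which was 0.18 without tumour-bearing 21 and 0.75 without EV 37. Ucp1, the uncoupling protein, was at 6.62, 37.5 and 23.2 CPM in tumour-bearing 17, 21 and 22, against 19.7 CPM in untreated 4 and 20.9 CPM in EV 37 (0.15 ± 0.64, edgeR adjusted p = 0.970). The tumour-bearing libraries enclosed the tumour-free ones. Ppargc1a, a coactivator that drives mitochondrial genes, was at 7.47, 20.3 and 4.78 CPM in the tumour-bearing libraries, against 3.81 CPM in untreated 4 and 3.24 CPM in EV 37 (1.62 ± 0.66, edgeR adjusted p = 0.576), highest in mouse 21. Fabp3, the fatty acid carrier of heart and muscle as well as of brown fat, was at 10.9, 18.4 and 13.5 CPM in the tumour-bearing libraries, against 1.81 CPM in untreated 4 and 2.83 CPM in EV 37 (2.61 ± 0.37, edgeR adjusted p = 0.0628, DESeq2 8.34e-09), and it also belongs to the muscle metabolism list. Pdk4, a kinase that spares glucose in fasting, was at 169, 759 and 321 CPM in the tumour-bearing libraries, against 132 CPM in untreated 4 and 74.6 CPM in EV 37 (2.01 ± 0.69, edgeR adjusted p = 0.534, DESeq2 0.0329). These were the 2 thermogenic genes called by DESeq2. Muscle makes both, among other tissues, and the source of their RNA in these pads was not tested.

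Lipolysis genes gave 0 calls of 23 in either tool, with a median of -0.06 (from -0.25 without tumour-bearing 21 to -0.019 without untreated 4). Pnpla2, the triglyceride lipase ATGL, was at 2873, 3586 and 2986 CPM in the tumour-bearing libraries, against 4402 CPM in untreated 4 and 2693 CPM in EV 37 (-0.17 ± 0.31, edgeR adjusted p = 0.908). Lipe, hormone-sensitive lipase, was at 2116, 1917 and 1820.2 CPM in the tumour-bearing libraries, against 2900.2 CPM in untreated 4 and 2112 CPM in EV 37 (-0.36 ± 0.26, edgeR adjusted p = 0.704). Both lipases overlapped between the groups. Adrb3, the receptor through which noradrenaline starts lipolysis, was at 344, 76.5 and 284 CPM in the tumour-bearing libraries, against 459 CPM in untreated 4 and 508 CPM in EV 37 (-1.04 ± 0.59, edgeR adjusted p = 0.648), with mouse 21 far below the rest. Lipid synthesis (23 genes tested) and triglyceride assembly (22) also had 0 calls in either tool, with medians of -0.20 and -0.09. The sign of both turned with the tumour-free library kept: the medians were 0.62 and 0.23 without untreated 4, and -0.69 and -0.32 without EV 37, and that of lipid synthesis was also 0.033 without tumour-bearing 22.

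The fat cell list was read beside the choice of the libraries, which was made on 1 of its members and also favoured pads high in the others. Its summed CPM of the total was 64940 to 87546 in the libraries kept and 4586 to 24692 in those left out. Of its 23 genes, 18 had a negative log2 fold change, 7 lay below the tumour-free libraries in all 3 tumour-bearing ones (12.7% of all genes), the median was -0.35 (-0.20 without untreated 4), and 0 were called by edgeR and 1 by DESeq2 (0.335% of all genes). That gene was Slc7a10, an amino acid transporter of white fat, at 100.2, 139.9 and 94.5 CPM in tumour-bearing 17, 21 and 22, against 224 CPM in untreated 4 and 219 CPM in EV 37 (-0.99 ± 0.23, edgeR adjusted p = 0.291, DESeq2 0.0175). It was also called by edgeR without tumour-bearing 21. Cidec, which fuses fat droplets, was at 3313, 2975 and 3336 CPM in the tumour-bearing libraries, against 5589 CPM in untreated 4 and 3992 CPM in EV 37 (-0.58 ± 0.27, edgeR adjusted p = 0.591). Trarg1, a regulator of glucose transporter traffic, was at 303, 83.3 and 246 CPM in the tumour-bearing libraries, against 356 CPM in untreated 4 and 493 CPM in EV 37 (-1.01 ± 0.53, edgeR adjusted p = 0.626). Klb, the co-receptor of FGF21, ran the other way, at 122, 67.9 and 74.2 CPM in the tumour-bearing libraries, against 60.6 CPM in untreated 4 and 44.1 CPM in EV 37 (0.75 ± 0.32, edgeR adjusted p = 0.579).

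Of mitochondrial genes, 0 of 37 complex I genes and 0 of 37 genes of complexes II to V were called in either tool, with medians of 0.01 and 0.05 and every value between -0.27 and 0.31. Leaving out 1 library turned the sign of both medians, which were -0.086 and -0.16 without EV 37 and 0.18 and 0.24 without untreated 4. The 13 messenger RNAs of the mitochondrial genome had a median of -0.21, which was -0.68 without EV 37 and -1.06 without tumour-bearing 21. It was 0.49, 0.031 and 0.12 without untreated 4, tumour-bearing 17 and tumour-bearing 22. mt-Co1, a subunit of complex IV encoded there, was at 22925, 49120.1 and 18331 CPM in the tumour-bearing libraries, against 48159.9 CPM in untreated 4 and 21503 CPM in EV 37 (-0.21 ± 0.60, edgeR adjusted p = 0.945). Tumour-bearing 21 and untreated 4 were high and the other 3 libraries low, across the groups. Ndufv1, a nuclear subunit of complex I, was at 229, 234 and 203 CPM in the tumour-bearing libraries, against 243 CPM in untreated 4 and 176 CPM in EV 37 (0.08 ± 0.22, edgeR adjusted p = 0.941).

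**Figure D5:**
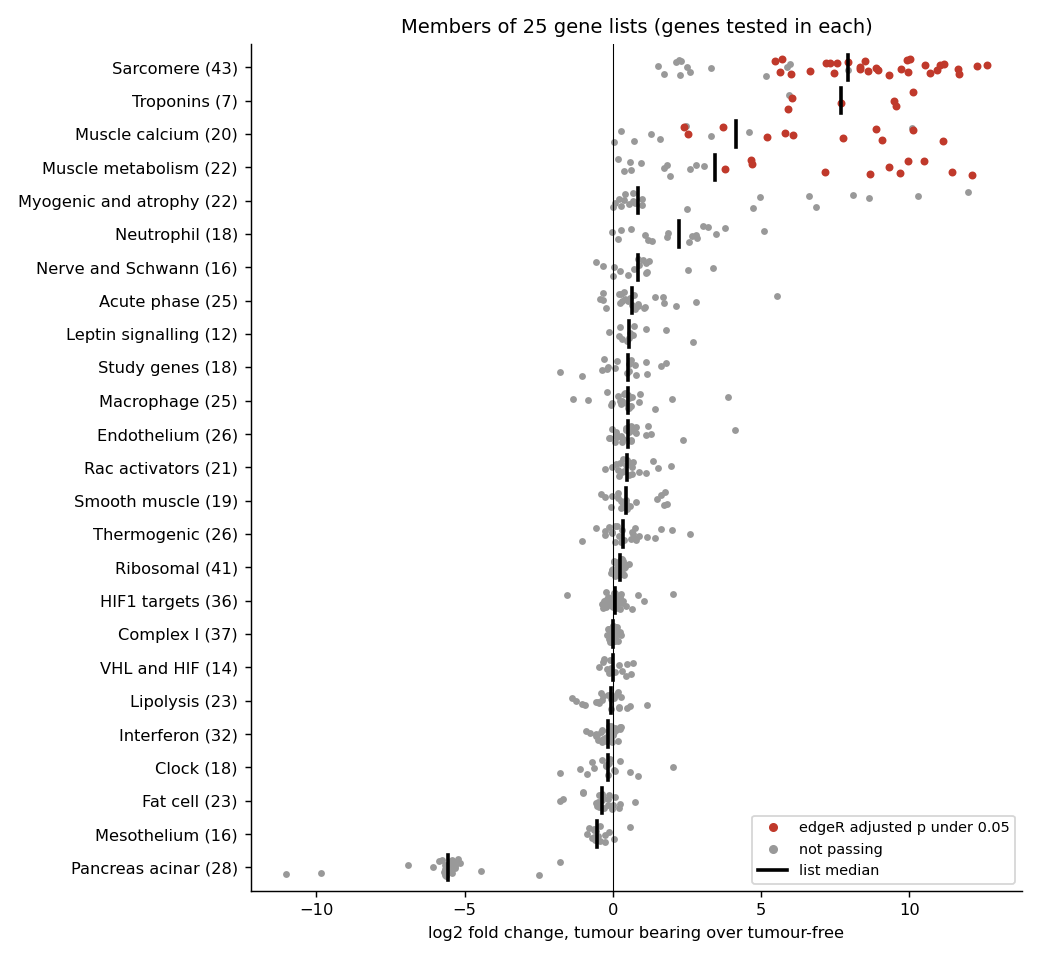
Log2 fold change of tumour-bearing over tumour-free libraries for the members of 25 gene lists (number of genes tested in brackets), with the median of each and the genes called by edgeR marked. Calls are found in 4 muscle lists, the sarcomere list has a median of 7.93, and the pancreas list, chosen after its values were seen, has -5.56.

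Among markers of other cells, neutrophil genes had a median of 2.22 over 18 tested, or 1.57 over the 14 that reached 0.445 CPM of the total in a tumour-free library. The list's median was 0.76 without tumour-bearing 21. edgeR called 0 of them and DESeq2 3 (1.81% of all genes). S100a9, a calcium-binding protein of neutrophils, was at 6.67, 57.3 and 15.8 CPM in tumour-bearing 17, 21 and 22, against 5.05 CPM in untreated 4 and 1.51 CPM in EV 37 (3.03 ± 1.07, edgeR adjusted p = 0.546, DESeq2 0.0152). Retnlg, a resistin-like protein of neutrophils, was at 0.568, 7.71 and 1.90 CPM in the tumour-bearing libraries, against 0.381 CPM in untreated 4 and 0.110 CPM in EV 37 (3.80 ± 1.32, edgeR adjusted p = 0.540). Mouse 21 held the highest level of both. The macrophage list had 20 positive values of 25, 0 calls in edgeR and 1 in DESeq2 (1.81% of all genes). Its median was 0.51, which was 0.24 without untreated 4 and 0.88 without EV 37. Itgam, the integrin CD11b of myeloid cells, was at 42.3, 154 and 52.9 CPM in the tumour-bearing libraries, against 16.2 CPM in untreated 4 and 25.2 CPM in EV 37 (2.0 ± 0.64, edgeR adjusted p = 0.503, DESeq2 0.0224). Lymphocyte genes were scarce: only 6 of 23 passed the filter, and 10 to 14 of the 23 were at 0 in each of the 5 libraries.

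Endothelial genes had 23 positive values of 26, 12 without overlap above the tumour-free libraries (13.2% of all genes), 0 calls in edgeR, 2 in DESeq2 (1.81% of all genes) and a median of 0.50, or 0.45 over the 25 that reached 0.445 CPM of the total in a tumour-free library. Vwf, the clotting factor that endothelium stores, was at 143, 99.6 and 183 CPM in the tumour-bearing libraries, against 65.6 CPM in untreated 4 and 59.0 CPM in EV 37 (1.19 ± 0.30, edgeR adjusted p = 0.338, DESeq2 0.0175, called by edgeR without tumour-bearing 21). Ccl21a, a chemokine of lymphatic vessels, was at 11.6, 7.36 and 18.6 CPM in the tumour-bearing libraries, against 3.67 CPM in untreated 4 and 1.25 CPM in EV 37 (2.36 ± 0.62, edgeR adjusted p = 0.384, DESeq2 0.00399), and it has near-identical copies, so its counts are uncertain. Genes of nerve and Schwann cells had 14 positive values of 16, 7 without overlap above (13.2% of all genes), 0 calls in edgeR, 2 in DESeq2 (1.81% of all genes) and a median of 0.86. That median was 0.78 over the 14 that reached 0.445 CPM of the total in a tumour-free library, and 0.53 over the list without tumour-bearing 22. Ngfr, the nerve growth factor receptor, was at 21.7, 4.05 and 19.3 CPM in the tumour-bearing libraries, against 1.48 CPM in untreated 4 and 1.40 CPM in EV 37 (3.38 ± 0.79, edgeR adjusted p = 0.290, DESeq2 4.58e-05, called by edgeR without tumour-bearing 21). Mesothelial genes, of the layer that covers the pad, had 14 negative values of 16, a median of -0.53 and 0 calls in either tool. The median was -0.00045 without EV 37 and -0.86 without untreated 4, so its size rested on EV 37. Upk3b, a marker of mesothelium, was at 137, 109 and 141 CPM in the tumour-bearing libraries, against 159.9 CPM in untreated 4 and 289.6 CPM in EV 37 (-0.80 ± 0.30, edgeR adjusted p = 0.559).

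No gene passed edgeR on the lower side, and the 10 genes with the smallest p there among those without overlap had adjusted p from 0.161 to 0.230. Six5, a homeobox factor, was at 13.1, 13.7 and 11.8 CPM in tumour-bearing 17, 21 and 22, against 23.4 CPM in untreated 4 and 26.9 CPM in EV 37 (-0.97 ± 0.18, edgeR adjusted p = 0.161, DESeq2 0.00594). Hoxd4, a homeobox gene of body position, was at 8.0, 10.5 and 4.66 CPM in the tumour-bearing libraries, against 22.5 CPM in untreated 4 and 31.8 CPM in EV 37 (-1.81 ± 0.37, edgeR adjusted p = 0.202, DESeq2 0.00124). Mmp11, stromelysin-3, a protease of connective tissue, was at 9.75, 9.83 and 12.7 CPM in the tumour-bearing libraries, against 22.2 CPM in untreated 4 and 20.4 CPM in EV 37 (-0.98 ± 0.21, edgeR adjusted p = 0.230, DESeq2 0.0239). The other 7 were Pqlc3, Sox12, Kifc2, Rasgrp2, Acrbp, Fgf13 and Adap1, with log2 fold changes of -1.78 for Acrbp to -0.83 for Rasgrp2. DESeq2 called all 10, and edgeR called Kifc2, Acrbp and Hoxd4 without tumour-bearing 21. Clock genes, which drive the daily rhythm, had 12 negative values of 18, 5 without overlap below (12.7% of all genes), a median of -0.17 (from -0.24 without tumour-bearing 21 to -0.032 without 17) and 0 calls in edgeR. DESeq2 called Dbp, an output gene of the clock, at 106, 86.8 and 131 CPM in the tumour-bearing libraries, against 260.0 CPM in untreated 4 and 206 CPM in EV 37 (-1.11 ± 0.24, edgeR adjusted p = 0.249, DESeq2 0.0101).

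Within the groups, single libraries departed from their partners. EV 37 and untreated 4, which stood together as tumour-free, differed by more than 2-fold in 1026 genes, and tumour-bearing 21 differed so from the mean of 17 and 22 in 2270. The genes that follow were chosen for these ratios and are given with no test. Nnat, neuronatin, a protein of the reticulum that is linked to fat cell formation, was at 996 CPM in EV 37, against 85.9 CPM in untreated 4, and at 207, 18.8 and 279 CPM in tumour-bearing 17, 21 and 22. Sfrp5, a secreted inhibitor of WNT signals in fat, was at 127 CPM in EV 37, against 5.81 CPM in untreated 4. Pnlip, pancreatic lipase, was at 12.8 CPM in EV 37, against 758 CPM in untreated 4. The 5 genes highest in EV 37 by this ratio also held Lep, Acta1 and Thbs1, and the 5 highest in untreated 4 were all pancreatic, with Cel, Rnase1, Amy2a4 and Amy2a5, the amylases being near-identical copies.

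Among genes averaging at least 20 CPM over the 5 libraries and named by the rule, the 5 highest in tumour-bearing 21 over mice 17 and 22 were Saa3, Marco, Cxcl13, Fos and Nr4a1. Saa3, an acute phase protein that fat and macrophages make, was at 429.8 CPM in mouse 21 and 1.42 and 4.91 CPM in mice 17 and 22. Marco, a scavenger receptor of macrophages, was at 211 CPM in mouse 21 and 1.37 and 1.32 CPM in mice 17 and 22. Cxcl13, a chemokine that draws B cells, was at 802, 15.8 and 9.65 CPM in the same order of mice. Fos and Nr4a1, genes that switch on within minutes of a stimulus, were at 302 and 322 CPM in mouse 21, while mice 17 and 22 had at most 6.89 and 10.8 CPM. In the other direction, Pdpr, a subunit of the phosphatase that activates pyruvate dehydrogenase, was at 99.5 and 81.4 CPM in mice 17 and 22, against 5.98 CPM in mouse 21, 6.77 CPM in untreated 4 and 7.03 CPM in EV 37. Coro2b, an actin-binding coronin, was at 203 and 382 CPM in mice 17 and 22, against 21.3 CPM in mouse 21, 23.1 CPM in untreated 4 and 35.6 CPM in EV 37. Mouse 21 thus lay with the tumour-free libraries for both genes. The deposited columns named TPM carry a pattern that would group mice 17 and 22 apart from the other 3 libraries, and no label gives such a batch. That group holds tumour-bearing mice alone, so a batch and the difference of mice 17 and 22 from the rest cannot be told apart. With a term for it, which leaves mouse 21 against untreated 4 and EV 37, 175 genes were called higher by edgeR, 95 of the 96 among them, and 6 lower.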

How the data were processed

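RNA of eWAT was sequenced from 9 mice, and 5 libraries were compared. Per the study's methods, reads trimmed by the authors (SeqPrep, Sickle) were mapped by HISAT2, joined into transcripts by StringTie and counted by RSEM. The submitters' processing notes give another aligner, Bowtie 0.12.2, with builds mm8 and mm9. No source used here names an annotation, so coordinates are printed for the promoter windows alone, which are RefSeq's on GRCm38.p6. The deposited expected counts are estimated counts per gene and were rounded to whole numbers. The deposited columns named TPM were treated as a score and entered no test: their totals were 0.697 to 1.28 times 1000000, the total of a plain TPM. Of 14954 genes, 99.91% matched, within a relative tolerance of 0.0001, a pattern that removal of 3 batches from them would leave (mice 17 and 22, mouse 7, the other 6). That fit entered the groups as 1 numeric code. The next of 8974 other combinations of a batch assignment and a way to enter the groups reached 7.302%.

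Of 53700 gene IDs, 52093 matched a symbol. The 135 IDs that share 67 symbols were left out, since for 21 of 30 such symbols the EV columns repeat the same counts. edgeR 4.0.16 in R 4.3.3 was run on the 5 libraries with the column totals, filterByExpr (minimum count 10), TMM factors and 1 term, tumour bearing or tumour-free, 2-sided, with Benjamini-Hochberg adjustment over 16045 genes. SE is the absolute log2 fold change over the square root of F. DESeq2 1.42.0 was an alternative, as were other scaling factors, no filter, all 9 libraries, each library left out, a term for mice 17 and 22, and the shared IDs kept. Leaving out IDs with repeated EV counts was added after seeing the data. The edgeR script was tested on simulated data. Precision follows from 20830705 to 24355135 counts per library. Floors of 3 counts and intervals at 95% cover counting error only.

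Genes were named by rule. These were the 18 genes of the list drawn up around the study and the 4 members of smallest p in a described list. Up to 10 called genes were named by fold change (mean of at least 5 CPM, no overlap, no predicted genes, filled by p where fewer were called). Up to 5 genes each way were named by ratio within the groups (mean of at least 20 CPM). The libraries, the 46 gene lists and the tests were chosen with earlier results of these data known. The pancreas list was added after its values were seen. Some genes that this rule names are not reported here.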

Additional observations from a re-analysis of the deposited data

Results flagged for a closer look

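Groups of 3 and 2 libraries are too small for a test of single outlying samples, and the tumour-free side holds no second library of either treatment with which an effect could be compared. What follows lies in the 4 tumour-free libraries left out, where the summed level of a marker list was more than 10 times that of the higher fat-rich tumour-free library (untreated 4 or EV 37), in CPM of the total. The sarcomere list summed to 4336 CPM in untreated 7, against 307 CPM, with 1 library past that limit. The troponin list summed to 147 CPM in untreated 7, against 2.09 CPM, and all 4 libraries passed. The ovary list summed to 14873 CPM in untreated 10, against 137 CPM, with 3 libraries past the limit. The list of oviduct and uterus summed to 3445 CPM in untreated 7, against 32.6 CPM, with 4 past it. The list of mammary epithelium summed to 3836 CPM in untreated 7, against 138 CPM, with 1 past it. The neutrophil list summed to 790.2 CPM in untreated 10, against 32.9 CPM, with 2 past it. None of these 4 libraries entered the comparison.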

How the results depend on the processing

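All 96 genes called higher kept a positive log2 fold change in each of the 13 alternatives. Beside 96 higher and 0 lower in the reported fit, DESeq2 called 325 and 60, the fit with no filter on low counts 214 and 16, the term for mice 17 and 22 175 and 6, and all 9 libraries together 53 higher, 51 of them among the 96. Leaving out 1 library at a time gave 0 to 315 higher and 0 to 137 lower: 0 and 0 without untreated 4 or EV 37 (823 and 807 genes at an unadjusted p under 0.05 in edgeR, and no other tool was run there), 61 higher without tumour-bearing 17, 25 without 22, and 315 and 137 without 21. Column totals alone gave 119 higher, and RLE factors, the shared IDs kept and the repeated EV counts left out each gave 96, so these stayed within 1.5 times. The fits without 1 tumour-free library rest on a lone library and fewer residual degrees of freedom, and the cause of the other shifts was not tested. Signs turned for genes that did not pass. With the term for mice 17 and 22, the log2 fold change was -0.46 for Coro2b, -0.71 for Grk5, -0.21 for Pdpr, -0.62 for Thbs1, -0.25 for Vcl, 0.50 for mt-Co1 and 0.016 for Pnpla2. With 1 library left out it ran from -3.13 to 1.18 for Lep, -2.56 to 0.97 for Nnat, -3.85 to 0.91 for Sfrp5, -1.56 to 0.35 for Retnla and -0.13 to 0.34 for Ndufv1 (positive, or for Ndufv1 negative, without EV 37). It ran from -0.0061 to 1.52 for Dio2, -1.65 to 3.49 for Fos, -0.0027 to 6.29 for Marco, -0.40 to 4.37 for Nr4a1 and -0.44 to 0.59 for Ucp1 (negative without tumour-bearing 21). It ran from -0.35 to 3.50 for Thbs1 (negative without 22), -0.76 to 0.49 for mt-Co1 (positive without untreated 4 or tumour-bearing 22) and -0.48 to 0.23 for Pnpla2 (positive without untreated 4). No paired analysis was possible because the tumour-bearing and tumour-free libraries share no replicate number. Depth limits the 13 called genes with 0 counts in the tumour-free pads, given as bounds, and the 19 with 1 to 3 counts, given as ratios with wide intervals.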

Other observations

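Ribosomal protein genes had positive log2 fold changes in 37 of 41, no overlap above the tumour-free libraries in 22, a median of 0.24 (0.14 without untreated 4) and 0 calls in either tool, beside 13.2% of all genes without overlap above. Rps2, a protein of the small subunit, was at 769, 628 and 762 CPM in tumour-bearing 17, 21 and 22, against 455 CPM in untreated 4 and 523 CPM in EV 37 (0.56 ± 0.22, edgeR adjusted p = 0.571). Their summed CPM of the total was 12904, 12329 and 14577 in the tumour-bearing libraries, against 9421 in untreated 4 and 13287 in EV 37, so EV 37 lay among the tumour-bearing ones on that scale. Interferon response genes had negative values in 25 of 32, a median of -0.15 and 0 calls in either tool, and the median was 0.086 without EV 37, 0.031 without tumour-bearing 21 and -0.43 without 22. Ifit3, an interferon-induced gene chosen after its values were seen, was at 173, 20.1 and 175 CPM in the tumour-bearing libraries, against 131 CPM in untreated 4 and 229 CPM in EV 37, with mouse 21 apart from the other 4. Of complement, C3, the protein on which its pathways meet, was at 4836, 6262 and 3908 CPM in the tumour-bearing libraries, against 3157 CPM in untreated 4 and 2072 CPM in EV 37 (0.94 ± 0.35, edgeR adjusted p = 0.559), and the list of 23 had a median of 0.28 (0.056 without untreated 4 and 0.61 without EV 37) and 0 calls in either tool.

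Activators of the small GTPase Rac had 19 positive values of 21, 0 calls in edgeR, 2 in DESeq2 (1.81% of all genes) and a median of 0.48 (0.29 without untreated 4). Prex1, an exchange factor of myeloid cells, was at 26.4, 39.7 and 30.9 CPM in the tumour-bearing libraries, against 9.34 CPM in untreated 4 and 13.2 CPM in EV 37 (1.52 ± 0.27, edgeR adjusted p = 0.138, DESeq2 0.000176). Fitm1, which helps form fat droplets and is expressed chiefly in muscle, was at 4.21, 8.35 and 6.10 CPM in the tumour-bearing libraries, against 0.619 CPM in untreated 4 and 0.589 CPM in EV 37 (3.35 ± 0.45, edgeR adjusted p = 0.0508, DESeq2 7.92e-09).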
